A study of Mus musculus with 8 samples.

Results

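Coagulation and anticoagulant surface genes of lung endothelium were examined in RNA-seq of sorted endothelial cells from HF and LF mice. The set holds 10 genes, chosen by symbol from the 34899 genes of the deposited table, and each symbol had 1 row. They are F3 and F8 on the procoagulant side, Thbd, Procr and Tfpi on the anticoagulant side, the thrombin and protease-activated receptors F2r, F2rl1 and F2rl3, and the ectonucleotidases Entpd1 and Nt5e. All cells came from the lungs of female C57BL6 mice and had been sorted as negative for CD45, the surface marker of leukocytes, and positive for CD31, an adhesion molecule of endothelium. There were 4 HF and 4 LF libraries, whose names the labels do not spell out, and no age is given in the sources used here. The series title places the study in obesity, neutrophil oxidants and vascular inflammation. Per the series' design text the libraries came from 4 HF and 4 LF mice.

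Blood clotting starts when tissue factor, the product of F3, binds factor VII, and it leads to thrombin, the protease that turns fibrinogen into fibrin. Quiescent endothelium holds this in check with thrombomodulin, which turns thrombin into an activator of protein C, with the protein C receptor, which presents protein C, and with tissue factor pathway inhibitor, which blocks the tissue factor complex. Thrombin also signals to cells by cutting protease-activated receptors, and the ectonucleotidases CD39 and CD73 act in sequence to turn extracellular ATP and ADP, which activate platelets, into adenosine.

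The receptors carry their own ligand, which is unmasked when a protease cuts the extracellular end. The coding bases of that tethered ligand are shown because this stretch is what sets each receptor's ligand apart. F2r encodes PAR1, the thrombin receptor of endothelium, F2rl1 encodes PAR2, which trypsin-like proteases cut, and F2rl3 encodes PAR4, a further thrombin receptor. In the GENCODE M21 transcripts the 18 bases that encode the first residues after the cut (capitals) were flanked by 15 bases on each side (lower case) as follows.
F2r: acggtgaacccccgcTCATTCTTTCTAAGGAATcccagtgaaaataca
F2rl1: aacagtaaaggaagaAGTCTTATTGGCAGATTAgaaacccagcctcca
F2rl3: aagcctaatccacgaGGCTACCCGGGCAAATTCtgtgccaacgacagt

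The libraries differed among themselves in ways the group names do not explain. They held 10631506 to 20781564 reads assigned to genes. On the first principal component of the tested genes LF 1 and LF 2 lay at -56.4 and -50.9 and the other 6 libraries at -6.79 to 39.6, and on the second LF 3 and LF 4 lay at -38.5 and -34.2 and the other 6 at -1.41 to 29.6. Each LF pair thus stood apart on 1 component, so the 4 HF libraries are also compared with LF 3 and LF 4 alone and with LF 1 and LF 2 alone. These smaller comparisons share their HF libraries and were added after the data were seen. Their LF pairs were picked for likeness in the same values that are then compared. The p-values and calls of these fits are therefore descriptive and cannot serve as tests of HF against LF. Reads from the GENCODE class TEC made up 0.725% and 0.635% of LF 1 and LF 2 and 0.286% to 0.443% of the others. Pecam1, which encodes CD31, was at 27351 to 29564 normalised counts in HF and at 19424, 19737, 29129 and 33236 in LF 1 to LF 4. Cdh5, the cadherin of endothelial junctions, had a mean of 13037 ± 196 (SD, n = 4) in HF and 11154 ± 1655 (SD, n = 4) in LF, and Ptprc, which encodes CD45, was at 166 ± 72.8 against 199 ± 59.0.

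Thrombomodulin dominated the set. On the RPKM scale (reads divided by exon length and library total), which allows levels of different genes to be compared, Thbd had a mean of 558 over the 8 libraries, above 99.8% of the 17067 genes tested. F2r (51.4), Entpd1 (48.9) and Tfpi (20.5) followed, all in the upper part of the range. F3 (2.32), Procr (1.93), Nt5e (1.67), F8 (0.957), F2rl3 (0.816) and F2rl1 (0.510) were low, and F3 stood above 36.1% of the tested genes. In each of the 8 libraries Thbd was above F2r and Entpd1, and Tfpi was below both and above F3. The order of F2r and Entpd1 differed between the groups, with F2r above Entpd1 in 4 of 4 LF and in 0 of 4 HF libraries. Among the lower genes the order also differed by group, with F3 above Procr in 1 HF and 4 LF libraries, Procr above Nt5e in 4 HF and 1 LF, and F8 above F2rl3 in 1 HF and 4 LF. Nt5e was above F8 in 7 of 8 libraries and F2rl3 above F2rl1 in 6, so no neighbours below F3 kept 1 order in all 8. These neighbours lay close in level, and a library held 55 to 188 reads of F3, 37 to 85 of Procr and 11 to 42 of F2rl3. How often other genes of like level change order between the groups was not counted. Transcript levels say nothing of how much protein stands at the cell surface, and in sorted bulk samples fewer expressing cells and less RNA per cell cannot be told apart.

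**Figure D1:**
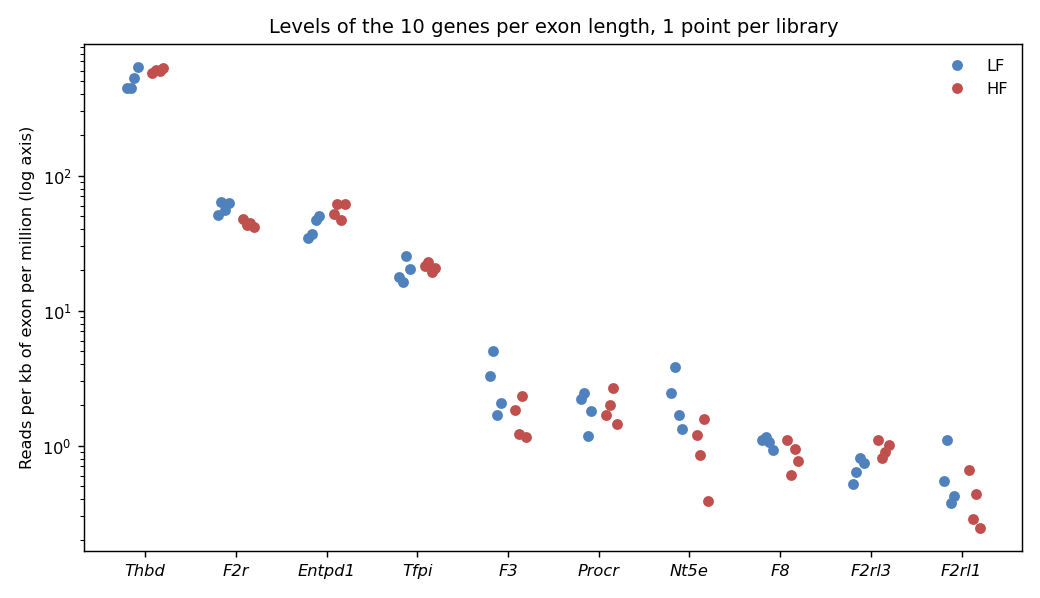
Level of each gene in RPKM (log axis), with 1 point per library, LF in blue and HF in red. Thbd lies highest at 442 to 637 and F2rl1 lowest at 0.246 to 1.10, and the 4 F2r points of HF lie below the 4 of LF.

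None of the 10 genes passed the test between HF and LF. All 10 passed the filter on low values, and limma called 0 of them, with 0 of 17067 genes (0%) called at a Benjamini-Hochberg adjusted p under 0.05. Before adjustment, 1882 genes (11%) had a limma p under 0.05, among them 3 members, with Entpd1 on the higher side in HF (6.36% of all genes) and F3 and Nt5e on the lower side (4.67%). edgeR's quasi-likelihood test called 0 members and 0 genes (0%), with 4 members and 1905 genes (11.2%) at an unadjusted p under 0.05. DESeq2 called 0 members and 309 genes (1.81%), 223 of them higher (1.31%) and 86 lower (0.504%) in HF. The authors' deposited table has none of the members at an adjusted p under 0.05, which 311 of its 15276 genes with an adjusted p reached (2.04%). The mean was higher in HF for 5 of the 10 members, against 51.3% of all genes tested, and the median log2 fold change was -0.057 beside 0.023 over all genes.

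**Figure D2:**
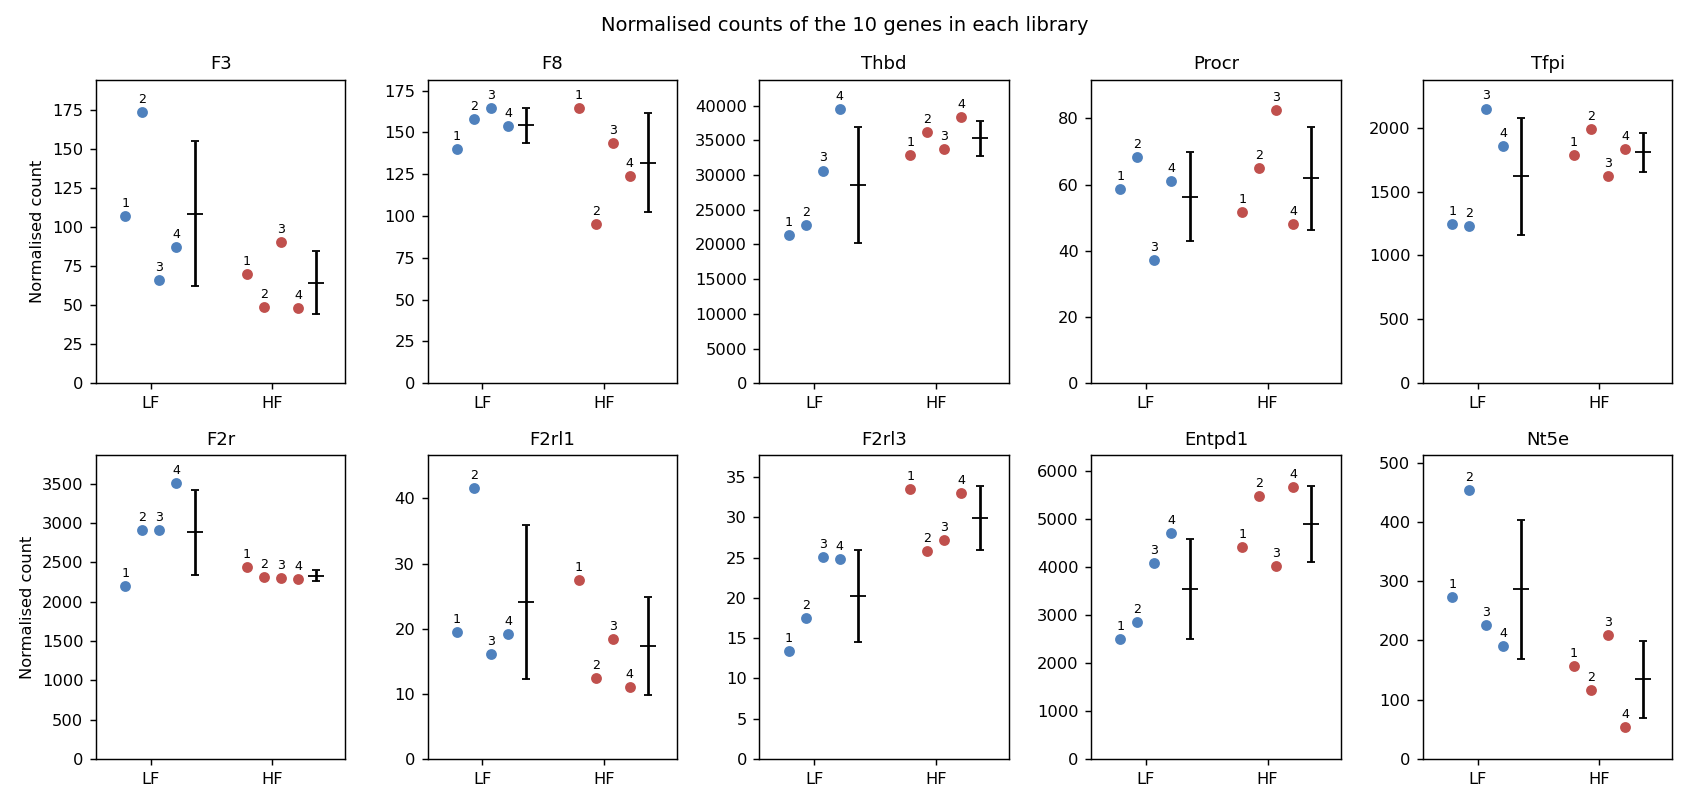
Normalised count of each gene (vertical axes start at 0 and differ between panels) in each LF (blue) and HF (red) library, numbered by replicate, with the group mean and SD in black. The F2rl3 points of HF all lie above those of LF, while the other 9 genes overlap between the groups.

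Among the procoagulant genes, F3 was on average lower in HF, and F8 differed less. F3 was at 70.1, 48.9, 90.4 and 48.1 normalised counts in HF 1 to HF 4 and at 107, 174, 66.2 and 87.1 in LF 1 to LF 4. The lowest values were those of HF 2 and HF 4 and the highest that of LF 2, and the groups overlapped. The fold (HF relative to LF, back-transformed from log2(value + 1), as for all folds here) was 0.614 (95% interval 0.384 to 0.980; limma unadjusted p = 0.0424, adjusted p = 0.433). It was 0.820 against LF 3 and LF 4 alone (0.514 to 1.31; limma adjusted p = 0.791) and 0.459 against LF 1 and LF 2 alone (0.283 to 0.744; limma adjusted p = 0.0320). F8, the cofactor of factor IX that circulates bound to von Willebrand factor, was at 165, 95.1, 144 and 124 in HF and at 140.3, 158, 165 and 154 in LF. HF 2 and HF 4 were again the lowest, while the LF values lay close together, and the fold was 0.840 (0.627 to 1.13; limma adjusted p = 0.640).

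The promoter of F3 is shown with that of F2rl3, the member whose groups did not overlap, because they differ in base composition and in the short motifs they hold. Both come from RefSeq windows of GRCm38.p6, cover the 250 bases before the annotated start on the plus strand, and carry matches to any of 4 motifs in capitals. The F3 window lies at chr3:121723287-121723536 with 70% G and C, and the F2rl3 window at chr8:72761409-72761658 with 52%. The RefSeq start of F2rl3 lies 221 bases before the one that GENCODE M21 gives, and 1 exon of that annotation overlaps the F3 window.
F3: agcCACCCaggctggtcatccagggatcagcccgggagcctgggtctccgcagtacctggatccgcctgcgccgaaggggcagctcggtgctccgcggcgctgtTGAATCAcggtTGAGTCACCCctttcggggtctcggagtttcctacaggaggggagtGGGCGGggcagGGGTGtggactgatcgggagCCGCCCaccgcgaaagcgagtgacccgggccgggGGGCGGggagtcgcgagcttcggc
F2rl3: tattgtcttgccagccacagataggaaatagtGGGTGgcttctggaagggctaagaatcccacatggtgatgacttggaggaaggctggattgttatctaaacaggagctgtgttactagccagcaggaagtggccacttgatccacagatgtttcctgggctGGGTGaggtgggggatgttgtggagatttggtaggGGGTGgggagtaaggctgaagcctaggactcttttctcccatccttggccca

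The motifs searched on both strands were CACCC (bound by KLF factors), GGGCGG (Sp1), TGANTCA (AP-1) and GGGRNNYYCC (the NF-kB consensus). In these, R stands for A or G, Y for C or T and N for any base. The F3 window held 3 matches to CACCC, 3 to GGGCGG and 2 to TGANTCA, with 1 of the CACCC matches overlapping the second AP-1 match by 2 bases. The F2rl3 window held 3 matches to CACCC and none to the others. Neither window held an exact match to this NF-kB consensus, and sites that differ from it by a base were not searched. Of all 32851 RefSeq windows of this length, 52.0% held CACCC, 32.7% GGGCGG, 6.75% TGANTCA and 7.25% the NF-kB consensus. These are matches of letters in a window and not measured sites. Rows for Thbd and F2rl1 were not in the promoter table, which had 8 of the 10 genes.

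All 3 anticoagulant surface genes had the higher mean in HF, by less than the spread between libraries. Thbd, which encodes thrombomodulin, was at 32832, 36247, 33783 and 38369 in HF and at 21336, 22757, 30665 and 39543 in LF. LF 1 and LF 2 stood below every HF library, while LF 4 was the highest of all 8. The fold was 1.27 (0.936 to 1.73; limma adjusted p = 0.548). Against LF 3 and LF 4 alone it was 1.01 (0.842 to 1.22; limma adjusted p = 0.9746), and against LF 1 and LF 2 alone it was 1.599 (1.37 to 1.87; limma adjusted p = 0.00391).

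Tfpi, which encodes tissue factor pathway inhibitor, followed the same libraries. It was at 1785, 1989, 1622 and 1833 in HF and at 1247, 1229, 2149.8 and 1858 in LF, so that LF 1 and LF 2 were the lowest and LF 3 the highest. The fold was 1.15 (0.877 to 1.497; limma adjusted p = 0.686), it was 0.902 against LF 3 and LF 4 alone (limma adjusted p = 0.679), and 1.46 against LF 1 and LF 2 alone (limma adjusted p = 0.00907). The direction of Tfpi thus turned with the pair of LF libraries left out. Procr, which encodes the endothelial protein C receptor, was at 51.8, 64.9, 82.6 and 48.1 in HF and at 58.6, 68.4, 37.1 and 61.1 in LF. Its groups overlapped throughout, and its fold of 1.10 (0.732 to 1.65; limma adjusted p = 0.851) became 0.956 against LF 1 and LF 2 alone. Summed levels of 10 markers of all endothelium moved with Thbd and Tfpi, at 114063 and 125911 normalised counts in LF 1 and LF 2 and 157557 to 192362 in the other 6 libraries. Of these 10 markers, 8 had the higher mean in HF and 2 in LF. Erg, among those 2, was highest in LF 1 and LF 2 (1044 and 1034) and at 600 to 771 in HF. General capillary markers summed to 163546 to 194857 in HF and 125479 to 163425 in LF, without overlap but by a narrow margin. Arterial markers summed to 31109.8 to 36826 and 24293 to 29184, also without overlap. The sums for other endothelial subtypes overlapped. Those for aerocytes, a type of lung capillary cell, were 46141 to 61223 in HF and 38425 to 69385 in LF. Venous sums were 31937 to 37051 and 22257.5 to 35207, and lymphatic sums 11820 to 13473 and 10731.5 to 13159. The mean was higher in HF for 8 of the 8 general capillary and 8 of the 10 arterial markers. It was higher in HF for 3 of the 8 aerocyte, 6 of the 10 venous and 3 of the 8 lymphatic markers, beside 51.3% of all genes tested. The part of these endothelial markers in the results for Thbd, Tfpi and Entpd1 was not tested.

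The 3 receptors did not share a direction. F2r, which made up 96.5% to 98.2% of the summed level of the 3 receptors per exon length, was at 2436, 2309.7, 2296 and 2283 in HF and at 2195, 2912, 2907 and 3508 in LF. The HF libraries lay within a narrow range, and LF 1 was the lowest of all 8 while the other 3 LF libraries lay above every HF value. The fold was 0.820 (0.665 to 1.01; limma adjusted p = 0.472). It was 0.730 against LF 3 and LF 4 alone (0.624 to 0.854; limma adjusted p = 0.0317) and 0.922 against LF 1 and LF 2 alone (0.773 to 1.0995; limma adjusted p = 0.489).

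The scaling between libraries changed whether the F2r groups overlapped. In RPKM, which scales to the library total, F2r was at 47.9, 43.4, 44.9 and 41.8 in HF and at 50.7, 63.6, 55.9 and 63.0 in LF, with no overlap. On that scale 2.67% of the tested genes had all HF values below all LF values. With this scaling limma gave a fold of 0.765 (0.658 to 0.890) with an unadjusted p of 0.00244 and an adjusted p of 0.372.

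F2rl3 was the only member without overlap on the normalised counts, and it rested on few reads. It was at 33.5, 25.8, 27.2 and 33.1 in HF and at 13.4, 17.6, 25.1 and 24.9 in LF, with 11 to 42 reads per library. The lowest HF value stood next to the highest LF value, and all HF values lay above all LF values in 3.47% of the genes tested and below them in 1.96% (5.43% together). The fold was 1.49 (0.933 to 2.38; limma adjusted p = 0.520), 1.18 against LF 3 and LF 4 alone and 1.88 against LF 1 and LF 2 alone (limma adjusted p = 0.850 and 0.0942). F2rl1 was at 27.4, 12.4, 18.5 and 11.03 in HF and at 19.5, 41.6, 16.1 and 19.2 in LF, with 14 to 45 reads. LF 2 stood apart from the other LF libraries, and the fold was 0.738 (0.402 to 1.36; limma adjusted p = 0.688).

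The ectonucleotidases differed in opposite directions. Entpd1, which encodes CD39, the enzyme that removes phosphates from ATP and ADP, was at 4412, 5479.7, 4016 and 5649 in HF and at 2502, 2840.4, 4084 and 4710.0 in LF. LF 1 and LF 2 lay below every HF library, and LF 3 and LF 4 lay among them. The fold was 1.42 (1.05 to 1.91; limma unadjusted p = 0.0267, adjusted p = 0.384). It was 1.10 against LF 3 and LF 4 alone (0.891 to 1.37; limma adjusted p = 0.770) and 1.81 against LF 1 and LF 2 alone (1.47 to 2.24; limma adjusted p = 0.0050).

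Nt5e, which encodes CD73, the enzyme that makes adenosine from AMP, had the largest log2 fold change of the 10 genes. It was at 158, 116, 209 and 54.4 in HF and at 273, 454, 226 and 191 in LF. The groups met only at HF 3 and LF 4, with the other 3 HF libraries below every LF library. The fold was 0.446 (0.255 to 0.782; limma unadjusted p = 0.00851, adjusted p = 0.271), and the authors' deposited table gives it a log2 fold change of -1.10 with an adjusted p of 0.0756. Against LF 3 and LF 4 alone the fold was 0.581 (0.314 to 1.07; limma adjusted p = 0.456), and against LF 1 and LF 2 alone it was 0.343 (0.181 to 0.651; limma adjusted p = 0.0283).

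Markers of mesenchymal and epithelial cells went with F3 and Nt5e in some libraries and not in others. LF 2, the highest library for both genes, also had the highest summed normalised counts of 10 fibroblast and mesothelial markers (4899), of 10 smooth muscle and pericyte markers (5226) and of 12 epithelial markers (35759). The fibroblast sum was 1694 to 3564 in HF and 2663 to 4899 in LF, and the epithelial sum 16646 to 25728 in HF and 21368 to 35759 in LF. The smooth muscle and pericyte sum was 2792 to 3389 in HF and 3403 to 5226 in LF, without overlap but by a narrow margin. HF 2 and HF 4, the lowest for F3 and Nt5e, had the lowest fibroblast sums, 1694 and 1791. LF 4 had the next highest sums of all these markers after LF 2 (4257, 4382 and 27611). Its Nt5e, however, was the lowest in LF (191), and its F3 was at 87.1. The fibroblast sum of HF 1 (3564) was above those of LF 1 (3118) and LF 3 (2663), yet its Nt5e was below both (158 against 273 and 226). The smooth muscle and pericyte sum of HF 1 (3389) was, like its Nt5e, below those of LF 1 (4066) and LF 3 (3403). The epithelial sum of HF 1 (21672) lay between those of LF 3 (21368) and LF 1 (25538). The mean was higher in HF for 2 of the 10 fibroblast, 1 of the 10 smooth muscle and pericyte and 0 of the 12 epithelial markers, and none of these markers was at 0 in any library. At an unadjusted limma p under 0.05, 5 of the 9 tested fibroblast and 6 of the 10 smooth muscle and pericyte markers were lower in HF. Of the 12 epithelial markers 1 was lower at that p, and of all genes tested 4.67% were. The part of these markers in the values of F3 and Nt5e was not tested. Of the macrophage markers, summed to 3682 to 6935 in HF and 6837 to 9192 in LF, 0 of 10 had the higher mean in HF, and Marco was at 0 in HF 3. The 10 pan-leukocyte and lymphocyte markers, Ptprc included, summed to 168 to 505 in HF and 339 to 699 in LF, with Cd3e, Cd3d and Klrb1c at 0 in some library.

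Against LF 1 and LF 2 alone limma called 5 of the 10 genes, where it called 20% of all genes tested. Thbd, Tfpi and Entpd1 were higher in HF (14% of all genes) and F3 and Nt5e lower (6.02%). Against LF 3 and LF 4 alone it called 1 member, F2r, where it called 3.76% of all genes, 3.09% higher and 0.662% lower in HF, and F2r was among the lower. No member was called against both pairs.

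**Figure D3:**
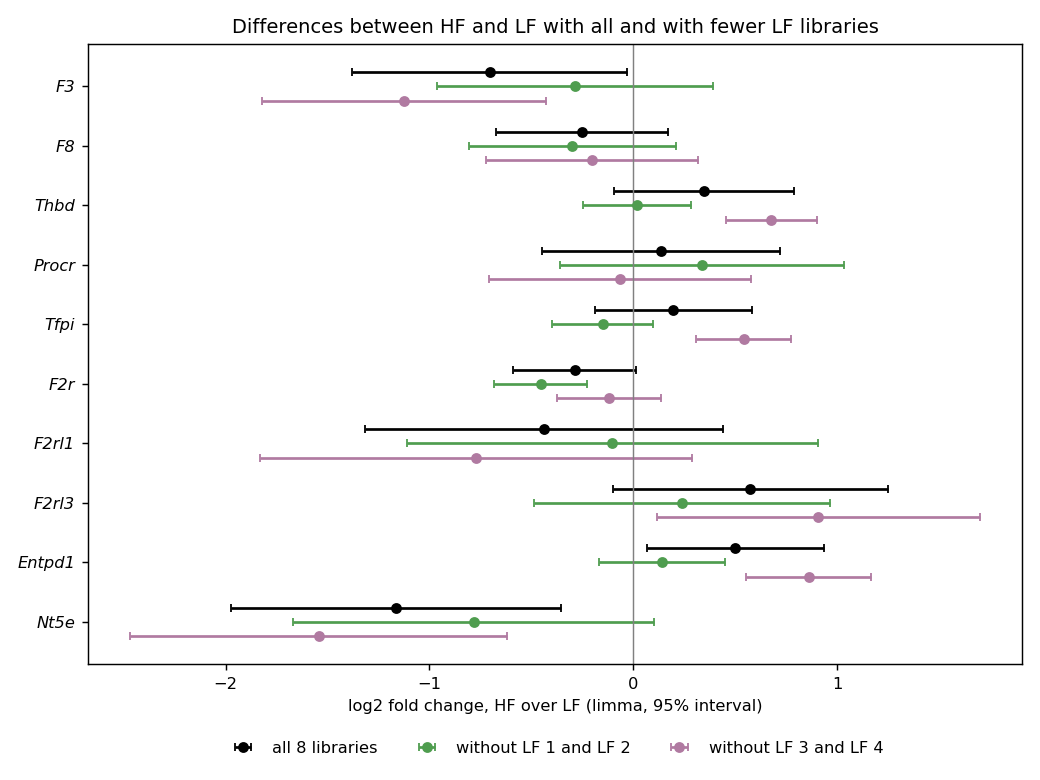
Log2 ratio of HF to LF and 95% interval from limma for each gene, with all 8 libraries (black), with LF 3 and LF 4 as the LF group (green) and with LF 1 and LF 2 as the LF group (purple). With all 8 libraries the points run from -1.16 for Nt5e to 0.57 for F2rl3, and Thbd moves from 0.02 to 0.68 between the smaller fits.

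Ratios within a library do not depend on the scaling between libraries, and were compared without a test. The level per exon length of Thbd over that of F3 was 318, 503, 254 and 542 in HF and 135, 88.9, 314 and 308 in LF, so this ratio of an anticoagulant to a procoagulant transcript overlapped between the groups. F2r over F2rl3 was 43.4, 53.6, 50.5 and 41.3 in HF and 97.8, 99.2, 69.3 and 84.3 in LF, with every LF library above every HF library. F2r over Entpd1 was 0.923, 0.705, 0.956 and 0.676 in HF and 1.47, 1.72, 1.19 and 1.25 in LF, again without overlap, with LF 3 and LF 4 nearer to HF. Entpd1 over Nt5e was 43.2, 72.6, 29.6 and 160.2 in HF and 14.1, 9.63, 27.9 and 38.0 in LF, where HF 3 lay within the LF range. Of the 45 pairs of the 10 genes, 7 had ratios that did not overlap between the groups, 3 of them with F2r and 3 with F2rl3. Over all 143964996 pairs of the 16969 tested genes above 0 in every library the share without overlap was 5.5%. The member pairs share genes, and the ratio of F2r to Entpd1 was picked after its values were seen.

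**Figure D4:**
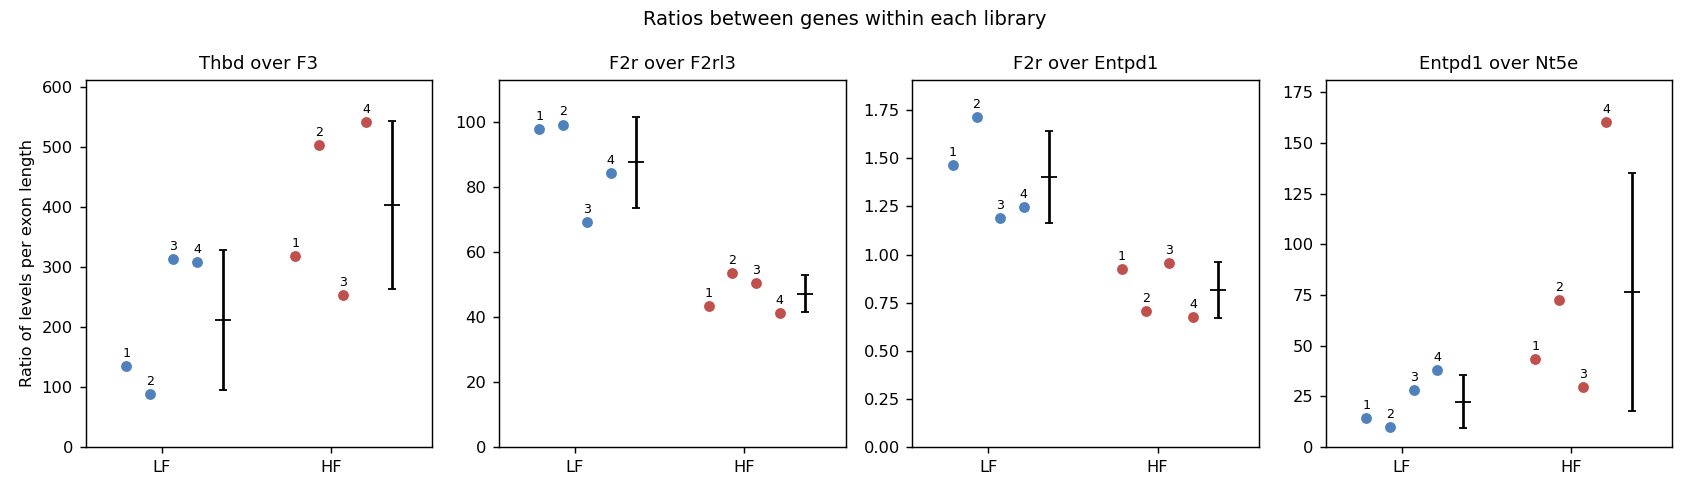
Ratio of levels per exon length between genes in each LF (blue) and HF (red) library, numbered by replicate, with the group mean and SD in black. F2r over F2rl3 spans 41.3 to 53.6 in HF and 69.3 to 99.2 in LF, and Thbd over F3 overlaps between the groups.

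Other genes of clotting, thrombin signalling and nucleotide breakdown were described by 6 lists. Of their 85 genes with a row 75 were tested, and limma called 0. Before adjustment 7 were higher (6.36% of all genes tested) and 6 lower (4.67%) at a p under 0.05. All HF values lay above all LF values in 2 of the 75 (3.47% of all genes) and below them in 3 (1.96%). In 49 of the 75 HF was higher on average (51.3% of all genes), and their median log2 fold change was 0.13, beside 0.023 over all genes. Of 11 clotting factor genes with a row, 6 passed the filter on low values. The most abundant named one was Vwf, the platelet-binding carrier of factor VIII, at 18002 ± 618 (SD, n = 4) in HF and 16004 ± 3938 in LF (fold 1.15, 0.880 to 1.505). F10, the precursor of the enzyme that forms thrombin, was at 53.1 ± 12.1 against 81.9 ± 31.2 and F5, its cofactor, at 130.01 ± 111 against 93.6 ± 66.7. HF was higher on average for 3 of the 6, and their median log2 fold change was -0.18.

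Levels in the list of plasma and cell anticoagulants varied widely. Proc, which encodes protein C, had 0 to 2 reads in a library. Pros1, the protein S cofactor of activated protein C and of tissue factor pathway inhibitor, was at 5549 ± 530 (SD, n = 4) in HF and 4826 ± 1326 in LF (fold 1.18, 0.902 to 1.54). Hs3st1, a sulfotransferase that builds antithrombin-binding heparan sulfate, was at 4062 ± 411 against 3447 ± 573. Lrp1, a clearance receptor that also takes up factor VIII, had a fold of 0.547 (0.374 to 0.799; limma adjusted p = 0.223) and Serping1, the C1 inhibitor, of 0.742 (0.572 to 0.961; limma adjusted p = 0.385). HF was higher on average for 4 of the 11 genes tested in this list, whose median log2 fold change was -0.10.

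Genes that process clotting factors or expose the membrane lipids on which clotting runs were higher on average in HF in 10 of 11 cases. Their log2 fold changes ran from 0.00083 to 0.40 around a median of 0.23. None had an unadjusted p under 0.05. The vitamin K reductases Vkorc1l1 and Vkorc1 had folds of 1.32 (0.999 to 1.75) and 1.25 (0.924 to 1.69), and the lipid scramblase Xkr8 had 1.32 (0.892 to 1.94). Against LF 3 and LF 4 alone their log2 fold changes were 0.11, 0.028 and -0.048, and against LF 1 and LF 2 alone they were 0.70, 0.62 and 0.84 (limma adjusted p = 0.0173, 0.0463 and 0.0258).

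Downstream of the receptors, 11 of 17 genes were higher on average in HF, and the median log2 fold change was 0.045. Gna11 encodes a G protein subunit that couples PAR1 to phospholipase C. It was at 2357, 2339.9, 2704 and 3450.3 in HF and at 1946, 2109, 1773 and 1831 in LF, without overlap, a fold of 1.40 (1.14 to 1.73; limma adjusted p = 0.217). All HF values lay above all LF values in 3.47% of the genes tested. F2rl2, which encodes PAR3, a cofactor of PAR4 on mouse platelets, was at 13.2, 95.1, 19.4 and 70.1 in HF and at 36.6, 46.2, 41.1 and 41.8 in LF. Itga2b, a platelet marker, was at 225, 1107, 216 and 609 in HF, highest in the same 2 libraries, and at 628, 263, 229 and 790.5 in LF, where F2rl2 hardly varied. The sum of 10 platelet markers was 2174 to 6572 in HF and 2193 to 4407 in LF, with Gp1bb at 0 in 7 of 8 libraries. Clec1b, also in that list, did not follow Itga2b. It was at 1354, 1293, 1139 and 979 in HF and at 1639, 2048, 936 and 760 in LF. In LF 2 it thus gave 2048 of a platelet sum of 3342. F5, named above among the clotting factors, was at 53.9, 283, 41.8 and 142 in HF and at 123, 67.4, 15.1 and 168 in LF. Within each group its libraries stood in the same order as for Itga2b. The part of platelet RNA in F5, in F2rl2, and in F2rl3, a platelet receptor too, was not tested.

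Around the ectonucleotidases, 14 of 22 genes were higher on average in HF, around a median log2 fold change of 0.20. Of these 22, 4 were higher and 2 lower at an unadjusted p under 0.05. Panx1, the channel that releases ATP, was at 86.4, 108, 72.9 and 102 in HF and at 64.7, 63.7, 54.2 and 53.2 in LF. All its HF values lay above all LF values, as in 3.47% of the genes tested (fold 1.55, 1.12 to 2.13; limma adjusted p = 0.303). The ATP receptors P2ry2 and P2rx4 had folds of 1.81 (1.10 to 2.97) and 1.28 (1.02 to 1.604), with limma adjusted p of 0.372 and 0.402. The adenosine transporter Slc29a1 had 1.25 (1.02 to 1.54) and the adenosine receptor Adora2a 1.06 (0.776 to 1.45). P2ry2, P2rx4 and Slc29a1 had log2 fold changes of 0.20, 0.11 and 0.10 against LF 3 and LF 4 alone and of 1.501, 0.61 and 0.54 against LF 1 and LF 2 alone.

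Among transcription factors, Klf2, which is known to raise Thbd in endothelium under flow, was at 5639, 7445, 11259.6 and 12049.9 in HF and at 6491, 4882, 3023 and 2750.2 in LF. The fold was 2.16 (1.39 to 3.35; limma adjusted p = 0.191). LF 3 and LF 4 had the lowest Klf2 values of the 8 libraries. The Klf2 fold was 3.01 against LF 3 and LF 4 alone (limma adjusted p = 0.00555). Against LF 1 and LF 2 alone it was 1.54 (limma adjusted p = 0.0987). Thbd had folds of 1.01 and 1.599 in these comparisons, larger against the other pair. The part of Klf2 in the Thbd values was not tested. Klf4, a related factor, had a fold of 1.19 (0.980 to 1.45; limma adjusted p = 0.497). Erg, an ETS factor of endothelial identity, was at 706 ± 75.5 (SD, n = 4) in HF and 943 ± 111 in LF, without overlap, a fold of 0.7496 (0.616 to 0.912; limma adjusted p = 0.261). It is also among the markers of all endothelium summed above. HF was higher on average for 7 of the 8 KLF and ETS genes, around a median log2 fold change of 0.18.

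**Figure D5:**
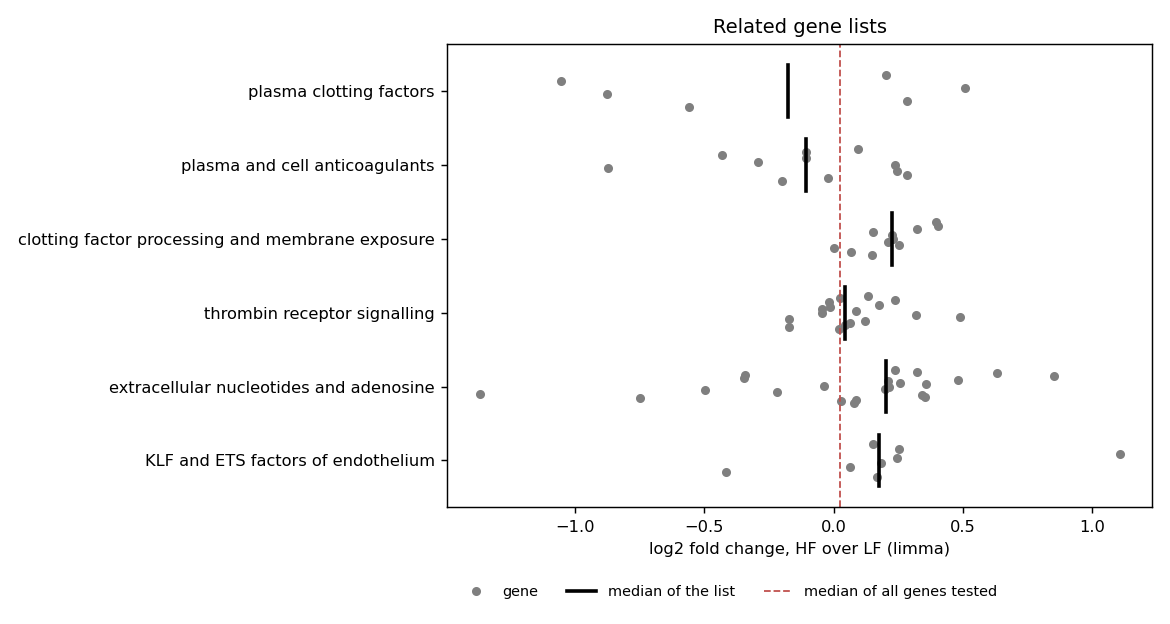
Log2 fold change of HF over LF for each tested gene (grey points) of 6 related lists, with the median of each list (black bar) and of all genes tested (dashed line). The medians run from -0.18 for clotting factors to 0.23 for clotting factor processing, beside 0.023 for all genes.

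In the GENCODE M21 annotation of GRCm38, Thbd lies on chromosome 2 from 148404466 to 148408188 as a single exon, Nt5e on chromosome 9 from 88327197 to 88372092, Entpd1 on chromosome 19 from 40612366 to 40741602, and F2r and F2rl1 on chromosome 13 from 95601803 to 95618487 and from 95511732 to 95525227. F3 lies on chromosome 3 from 121723537 to 121735048, F2rl3 on chromosome 8 from 72761880 to 72763874 and F8 on chromosome X from 75172715 to 75382615. Procr and Tfpi share chromosome 2 with Thbd, from 155751117 to 155755471 and from 84432855 to 84476775. No member shares exon bases with another gene of that annotation.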

How the data were processed

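The deposited table holds normalised counts per gene and library (a signal not scaled for gene length) and, per the file headers, the authors' log2 fold change with its standard error, a Wald score, p-values and adjusted p-values. STAR (2.6.1b), featureCounts (2.0.0) and the DESeq2 version 1.24.0 appear in the submitters' processing notes; genome build and strand setting: not given in the sources used here. A SMART-Seq kit was used, per the labels' protocols.

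Multiplied by a size factor for its library (0.820 to 1.27), each value gives reads. With a tolerance of 0.01 reads, 100% of them were whole. Totals of 10631506 to 20781564 limit the precision of genes with few reads, and reads from amplified cDNA do not each stand for a molecule. Exon lengths came from GENCODE M21, where all 34899 IDs were found.

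Genes that reached 10 normalised counts in 4 or more libraries entered limma 3.58.1 (R 4.3.3) on log2(normalised count + 1), with a mean-variance trend, two-sided, without covariates, and Benjamini-Hochberg adjustment over 17067 genes at a threshold of 0.05. edgeR 4.0.16 and DESeq2 1.42.0 were run on the recovered reads, and all 3 tools were tested on simulated data. Other alternatives were pseudocounts of 0.5 and 5, dropping the filter, requiring a mean of 50 or more, quantile and TMM scaling, the replicate number as a block and leaving out each library. Leaving out pairs of LF libraries and scaling to the library total were added after the data were seen. Chi-square per degree of freedom between libraries of a group was 9.06 to 45.2, so all 8 counted as samples.

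The members and the gene lists were chosen with earlier results of these data known. Named beside the members were up to 3 genes per related list with the smallest unadjusted p and a mean of at least 50, and 9 genes always given, where tested or measured; some genes that this rule names are not reported here. The 6 related and 12 marker lists serve as description only.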

Additional observations from a re-analysis of the deposited data

Results flagged for a closer look

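Of 72 groups of 4 libraries examined among the members and the other named genes, 3 had a library far from the rest, where chance alone gives about 1 in 20. F2rl1, the receptor for trypsin-like proteases, was at 41.6 normalised counts in LF 2 and at 16.1 to 19.5 in the other LF libraries, a gap of 0.864 of the range. Proc, which encodes protein C, was at 1.58 in HF 4 and at 0 in the other HF libraries, and at 0.924 in LF 2 and at 0 in the other LF libraries, so these values stand for 1 or 2 reads.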

How the results depend on the processing

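No planned setting called any of the 10 genes. Over all genes limma called 0 with all 8 libraries, 1 without a filter, 0 to 1 when a single library was left out, and 309 were called by DESeq2. Without LF 1 and LF 2 limma called 641 genes and 1 member, F2r at -0.45; without LF 3 and LF 4 it called 3421 genes and 5 members (Thbd 0.68, Tfpi 0.54, Entpd1 0.86, F3 -1.12 and Nt5e -1.54). The cause was not tested. Of 198 fits of single members 188 kept direction and side of the threshold, 6 were called only with an LF pair left out and 4 turned direction. Procr had a log2 fold change of 0.14 with all libraries, -0.048 (without LF 3) to 0.24 (without HF 4) when 1 library was left out, -0.012 without HF 3 and -0.065 without LF 3 and LF 4. Tfpi turned from 0.20 to -0.15 without LF 1 and LF 2. Leaving out 1 library moved Nt5e between -1.43 and -0.79, F3 between -0.91 and -0.45, Entpd1 between 0.35 and 0.65 and Thbd between 0.22 and 0.52. Quantile scaling gave F2r -0.39 and Thbd 0.29 at unadjusted p of 0.00244 and 0.00687 (limma adjusted p = 0.244 and 0.300). With the replicate number as a block limma called 0 genes, and no member. Deviations of same-numbered libraries correlated across genes at 0.115, -0.22, -0.14 and 0.18, and those of differently numbered libraries at -0.22 to 0.31. These values give no sign of pairing by number, and they cannot decide whether the libraries were paired. Read depth limits F2rl1, F2rl3, Procr and F3, which had 11 to 188 reads per library.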
